A study of Mus musculus with 8 samples.

Results

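The neuromuscular junction (NMJ) region of the control diaphragm at E18.5 is described here from 2 tissue sections profiled by spatial transcriptomics. It consists of 794 of the 12703 spots that hold at least 1000 UMIs (unique molecular identifiers, counts of distinct captured molecules) in all 8 sections of the series, with 464 spots in section 1 and 330 spots in section 2. Muscle spots were those whose mean log-normalised level of 9 sarcomere, cytoskeletal and calcium release genes (*Acta1*, *Actn2*, *Des*, *Myl1*, *Mylpf*, *Neb*, *Ryr1*, *Tnnt3* and *Ttn*, called the muscle genes below) exceeded the Otsu cut of their section. Of these, the NMJ region was selected on measured values, as the 15% of muscle spots with the highest NMJ score, the mean z-score of *Chrna1*, *Chrnd*, *Musk*, *Ache*, *Etv5*, *Prkar1a* and *Ufsp1*. It was compared with the other muscle, which are the 2164 and 1539 muscle spots of the same sections below the top 30% of the score, and the 464 and 330 spots between these limits are called intermediate.

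The NMJ is the synapse between a motor axon and a muscle fiber. The nerve terminal releases agrin, which binds LRP4 and activates the receptor tyrosine kinase MuSK, and this pathway clusters acetylcholine receptors (AChRs) in the postsynaptic membrane. The few myonuclei beneath the synapse transcribe the AChR subunits and other postsynaptic genes, whereas electrical activity represses these genes along the rest of the fiber. In the diaphragm the fibers radiate from a central tendon toward the ribs, and their synapses line up in an endplate band across the middle of the muscle. Terminal Schwann cells cover each synapse.

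The control embryos were mice that carried at least 1 functional allele of CaV1.1 and of β-catenin according to the methods, and the labels give their genotype only as control. Both E18.5 sections belong to this group, 1 section for each embryo. For comparison the series holds 3 control sections at E14.5, 1 CaV1.1 KO section at E14.5, 1 CaV1.1 KO section at E18.5 (CaV1.1 -/-, which lacks the voltage sensor of excitation-contraction coupling in the whole animal) and 1 β-catenin cKO section at E18.5. In the cKO the floxed β-catenin alleles are deleted by a Cre under the human skeletal actin promoter, which is active in muscle fibers. A capture spot is 55 µm wide, spots are 100 µm apart and sections are 5 µm thick, so that a spot samples several fibers together with the cells between them. In such mixed spots, fewer cells of a type and less RNA per cell cannot be told apart.

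The E18.5 control sections held 82859104 and 69837233 UMIs, of which 11952642 and 10230758 lay in the NMJ region and 51200876 and 42976126 in the other muscle. Spots of the NMJ region held somewhat more UMIs than those of the other muscle, with medians of 24272.5 against 22891 in section 1 and 30314.5 against 27385 in section 2. The muscle score, a mean of natural-log values that helped to choose the spots, had medians of 4.27 and 4.33 in the NMJ region and of 4.36 and 4.38 in the other muscle. Levels are given below as CPM (counts scaled to the library size and by TMM), and differences as log2 fold changes, NMJ region over other muscle, with their standard error (SE) and Benjamini-Hochberg adjusted p from edgeR with the section as a block. A number in parentheses directly after a gene is its log2 fold change.

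**Figure D1:**
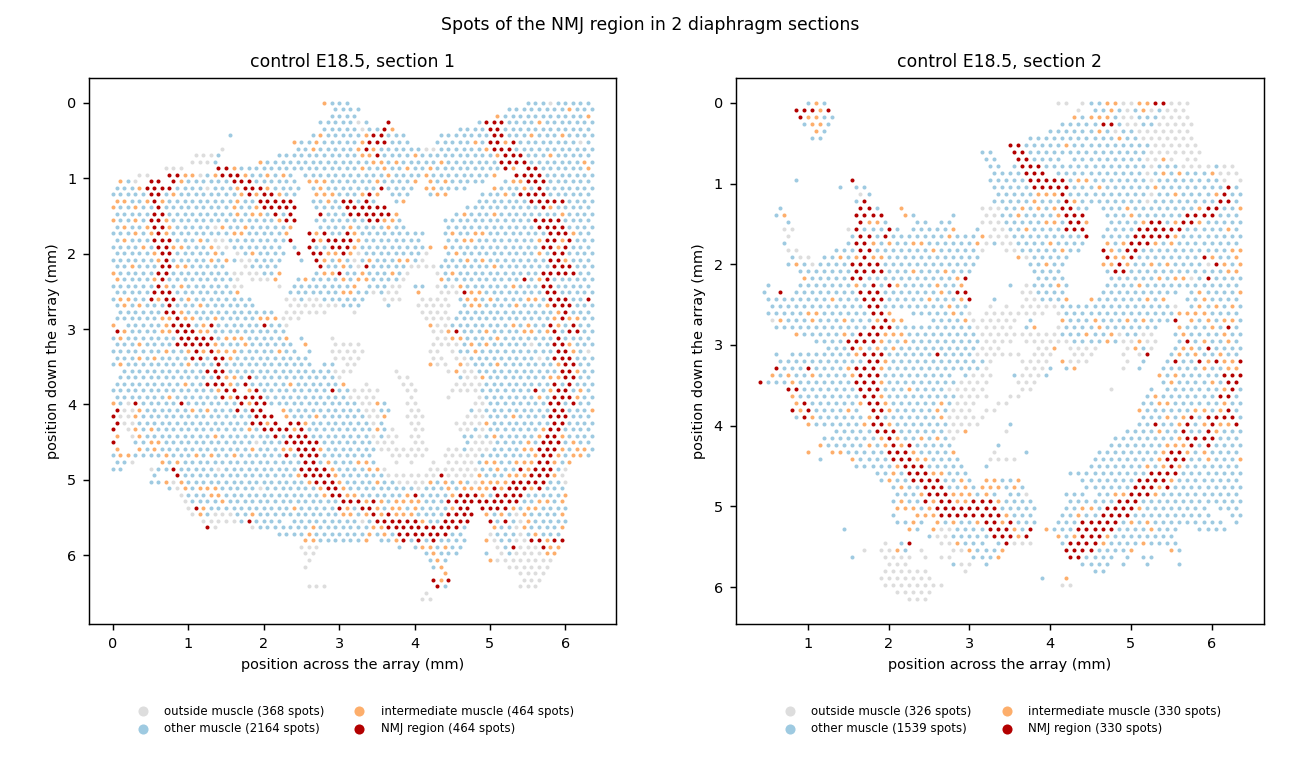
Position of the NMJ region in the 2 control E18.5 sections, with each point a capture spot and both axes in mm. The 464 and 330 NMJ spots form narrow bands through the muscle, with the intermediate spots mostly beside them.

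On the tissue most NMJ spots formed narrow bands through the muscle. Spots were not assigned to the costal or the crural part. Position was no part of the rule. Of the muscle spots directly next to an NMJ spot, 57.3% and 56.5% were NMJ spots too, against 15.01% and 15.1% of the neighbours of all muscle spots. Groups of at least 10 adjoining spots held 86.4% and 82.7% of the region, and the largest single group held 262 spots in section 1 and 86 in section 2, whereas 30 and 24 NMJ spots stood alone. Fewer NMJ spots touched the edge of the muscle, with 17.7% and 17.3% against 22.5% and 30.5% of the other muscle spots. Their mean distance from the edge was 280.6 and 250 µm, against 221.3 and 163.2 µm. Spots of 1 section are not independent, and these shares are descriptions without a test.

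The 7 genes of the score chose the spots, so their levels in the region are given as a description. *Chrna1*, the α subunit of the AChR, was at 269 raw CPM in the NMJ region of both sections and at 42.3 and 40.4 raw CPM in the other muscle. *Chrnd*, the δ subunit, was at 187 in both against 38.4 and 37.2 raw CPM, and *Musk* at 80.7 and 85.9 against 27.7 and 29.9 raw CPM. The contrast in raw CPM was wider for *Ache*, the acetylcholinesterase of the synaptic cleft, with ratios of 11.5 and 8.63, and for *Ufsp1*, with ratios of 9.91 and 7.65. *Etv5*, an Ets transcription factor, had ratios of 6.70 and 5.77, and *Prkar1a*, a regulatory subunit of protein kinase A, had ratios of 4.29 and 3.80. The score fell continuously across the limit, from 0.4479 and 0.3899 in the lowest NMJ spot to 0.447 and 0.3867 in the highest spot below it, whereas the medians were 1.32 and 1.30 in the NMJ region and −0.335 and −0.3365 in the other muscle.

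An endplate band was also drawn from the scores of each spot's neighbours alone, so that a spot's own counts played no part in its choice. The same 7 genes in adjacent spots chose the band, and most NMJ spots adjoin each other. Higher levels of these genes in the band were thus favoured in advance, and their test is not independent of the rule. The band held 454 and 317 of the 3026 and 2108 muscle spots with at least 3 muscle neighbours, and 73.8% and 72.9% of its spots were also in the NMJ region. All 7 genes were higher in the band than in the muscle spots below the top 30%, with log2 fold changes from 1.09 for *Musk* to 2.83 for *Ache* and 2.35 (SE 0.05) for *Chrna1*. Over all 13516 genes tested in the band 11.8% passed the adjusted threshold, 6.47% higher and 5.35% lower. When the score was instead built without the gene in question, the mean log2 ratio of *Chrna1* was 2.49 in place of 2.70 and that of *Musk* 1.19 in place of 1.53. Spread of transcripts between neighbouring spots during capture was not tested.

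Among the 13559 genes outside the rule that were tested, 873 were higher and 717 lower in the NMJ region at an adjusted p under 0.05, which is 11.7% of all, 6.44% higher and 5.29% lower. The median log2 fold change over these genes was 0.00033. Scaled to the 9 muscle genes instead, which shifted the median of all genes by 0.19, the split was 2483 higher and 100 lower, so that small differences below depend on the scale and genes are read relative to the median gene. DESeq2 called 378 genes and edgeR without the section block 54. With section 1 left out, in a fit of all 8 sections, 422 genes were called, and with section 2 left out 909, against 1527 (588 higher and 939 lower) in that fit with both. With the section as a block, p-values measure only how the difference between regions varied between these 2 sections, pooled over genes. The spread in level between the sections is not part of them.

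The name of the region was checked against postsynaptic genes that the rule did not use. Of the AChR subunits, the 3 outside the rule were all higher in the NMJ region. *Chrne* encodes the ε subunit, which replaces the fetal γ subunit as synapses mature. It was at 16.9 and 18.2 CPM in the NMJ region of sections 1 and 2 against 1.23 and 1.13 CPM in the other muscle (log2 fold change 3.88, SE 0.15, adjusted p = 2.6e-88). This was the widest contrast among the subunits, and neither NMJ value came near those of the other muscle. *Chrng*, which encodes the γ subunit, was at 161 against 69.7 CPM in section 1 and 149 against 58.8 CPM in section 2 (log2 fold change 1.27, SE 0.05, adjusted p = 7.1e-86). Its other muscle values were thus well above 0, unlike those of *Chrne*. *Chrnb1*, the β subunit, was at 132 and 142 CPM, against 113 and 122 CPM in the other muscle (log2 fold change 0.22, SE 0.05, adjusted p = 0.00061). The regions did not overlap for any of the 3, but among all 13559 genes tested 30.8% did not overlap either. Both NMJ values lay above both of the other muscle for 15.8% and below for 15%. With 2 sections this alone says little, here and for the genes below. The *Chrnb1* difference was small and did not pass with DESeq2 (adjusted p = 0.19), without section 1 (0.41) or without section 2 (0.32). In the band drawn from neighbouring spots the log2 fold changes were 3.96 for *Chrne*, 1.20 for *Chrng* and 0.18 for *Chrnb1*.

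**Figure D2:**
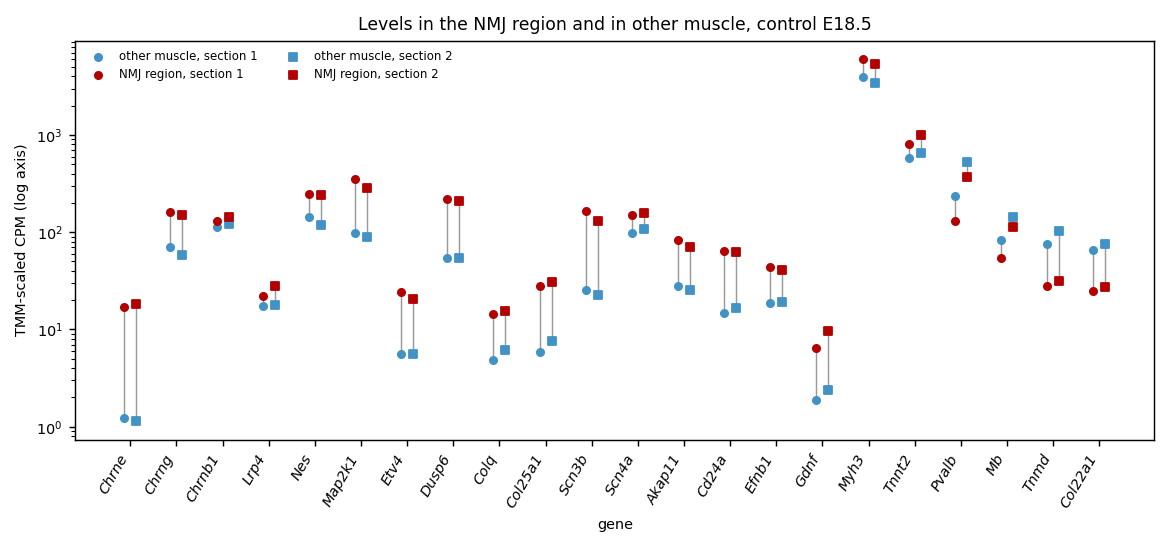
Levels of genes outside the rule in the NMJ region and the other muscle of each control E18.5 section, in CPM on a log axis. Each point is 1 region of 1 section, a line joins the regions of a section, and for *Chrne* and *Scn3b* both NMJ points lie above both points of the other muscle.

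Single spots showed the same order for *Chrne*. In section 1, 210 *Chrne* UMIs were counted over the 464 NMJ spots, and 32.1% of these spots held at least 1 (95% exact binomial interval 27.9 to 36.6%). In the other muscle the share was 2.59% (1.96 to 3.35%), and outside muscle, at a lower median depth of 17431 UMIs, it was 2.17% (0.943 to 4.24%). In section 2 the shares were 37.6% (32.3 to 43.0%) in the NMJ region, 3.05% (2.25 to 4.04%) in the other muscle and 2.45% (1.07 to 4.78%) outside muscle. The share in the other muscle thus lay within the interval of the tissue outside muscle in both sections, and the intermediate spots had 4.96% and 6.67%. Spots outside muscle are no blank, since they too held muscle transcripts. Their *Ttn* level was 3182 and 1956.5 raw CPM, while other muscle had 7656 and 7039. In section 2 their median depth was also lower, 20185 UMIs compared with 27385. Only 8 *Chrne* UMIs were counted outside muscle in each section. Whether *Chrne* in the other muscle exceeds a background was not tested. The intervals cover counting error only. Of all *Chrne* UMIs in muscle spots, 71.4% and 72.7% came from the NMJ region.

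The promoters of *Chrna1*, *Chrng*, *Chrne* and *Musk* are shown because *Chrna1* and *Musk* are genes of the score, *Chrng* and *Chrne* are genes outside it that were higher in the same spots, and their promoters can be read for the elements known to act in synaptic and myogenic transcription. These are the N-box, whose core CCGGAA is bound by Ets factors, and the E-box CAGCTG, which is bound by myogenic factors such as MyoD and myogenin. Both strands were searched, the E-box reads the same on both, and the 2 motifs share no bases here. Capitals mark the motifs, each sequence runs 5′ to 3′ on the strand of the gene, from 250 bases before the RefSeq start up to that start or to the first annotated exon base, and all are from RefSeq on GRCm38.p6. The positions are chr2:73580339-73580588 (minus strand) for *Chrna1*, chr1:87205561-87205809 (plus) for *Chrng*, chr11:70619217-70619444 (minus) for *Chrne* and chr4:58285712-58285959 (plus) for *Musk*, and no stretch holds an annotated exon. The *Chrng* stretch lies in an intron of the span that GENCODE gives the gene.
Chrna1: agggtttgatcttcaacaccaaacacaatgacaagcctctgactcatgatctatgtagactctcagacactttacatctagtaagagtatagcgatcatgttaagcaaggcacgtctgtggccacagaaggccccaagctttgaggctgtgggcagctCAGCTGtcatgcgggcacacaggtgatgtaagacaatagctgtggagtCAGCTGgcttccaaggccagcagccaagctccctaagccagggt
Chrng: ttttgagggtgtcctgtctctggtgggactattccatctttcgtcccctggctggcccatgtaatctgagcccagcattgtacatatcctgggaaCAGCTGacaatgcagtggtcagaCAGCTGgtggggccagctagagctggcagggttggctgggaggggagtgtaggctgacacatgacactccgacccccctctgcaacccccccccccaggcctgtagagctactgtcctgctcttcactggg
Chrne: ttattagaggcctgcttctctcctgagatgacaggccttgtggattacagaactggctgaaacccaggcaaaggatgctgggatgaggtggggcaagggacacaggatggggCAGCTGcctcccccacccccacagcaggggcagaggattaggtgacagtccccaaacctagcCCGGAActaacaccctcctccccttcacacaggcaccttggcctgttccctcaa
Musk: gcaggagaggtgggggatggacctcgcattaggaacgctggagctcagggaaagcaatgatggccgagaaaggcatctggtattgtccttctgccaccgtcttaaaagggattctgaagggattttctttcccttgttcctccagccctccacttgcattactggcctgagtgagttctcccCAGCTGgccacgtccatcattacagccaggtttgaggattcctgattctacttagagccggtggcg

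In these stretches *Chrne* held the N-box core, 76 bases before the start, and an E-box at 138 bases. *Chrna1* held 2 E-boxes, at 92 and 44 bases, *Chrng* 2, at 155 and 132 bases, and *Musk* 1, at 68 bases before the start. Over the 250 bases before the start, the N-box core was found in 12% and the E-box in 13% of all 32851 promoters. Among the promoters of the genes tested or used by the rule the shares were 19.5% and 12.8%. Of the 177 promoters of 134 genes at least 1 log2 unit higher in the NMJ region, 10.2% held the N-box core and 15.3% the E-box. These 134 genes include genes of the score. A match describes the letters only.

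Of the 13 genes tested in the agrin-MuSK pathway, 5 were higher in the NMJ region and none lower, with a median log2 fold change of 0.12. *Nes*, the intermediate filament protein nestin, was at 246 and 241 CPM in the NMJ region of sections 1 and 2 against 144 and 119 CPM in the other muscle (log2 fold change 0.89, SE 0.05, adjusted p = 1e-46). *Lrp4*, the agrin receptor, was at 22.2 against 17.6 CPM in section 1 and 28.3 against 17.9 CPM in section 2 (log2 fold change 0.50, SE 0.08, adjusted p = 4.3e-08). For both genes the regions did not overlap, although *Lrp4* did not pass with DESeq2 (adjusted p = 0.082) or without section 2 (0.16). The kinase *Pak1* (0.50) and *Macf1* (0.31), a linker of microtubules and actin, were higher as well, and *Abl2* (0.20) passed only narrowly (adjusted p = 0.043). *Abl2* lost its call without section 1 (adjusted p = 0.79) or 2 (0.41) and *Macf1* without section 1 (0.085). Genes whose proteins sit at the synapse did not all differ in transcript level. *Rapsn*, the scaffold that anchors AChRs, was at 24.3 and 29.1 CPM, against 27.7 and 27.6 CPM in the other muscle (log2 fold change −0.06, SE 0.07, adjusted p = 0.73), and *Dok7*, the adaptor that activates MuSK, was at 17.6 against 18.8 CPM in section 1 and 19.9 against 19.9 CPM in section 2 (log2 fold change −0.05, SE 0.08, adjusted p = 0.81). The values of the regions overlapped for *Rapsn*, and both signs turned under other settings, to 0.13 for *Rapsn* and 0.14 for *Dok7* when scaled to the muscle genes. *Agrn* was at 46.2 and 50.3 CPM, against 40.7 and 48.7 CPM in the other muscle (log2 fold change 0.12, SE 0.06, adjusted p = 0.23).

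Genes of neuregulin, ERK and Ets signalling were higher in 8 of 16 tested and lower in none, with a median of 0.25. The Ets factor *Etv4* was at 24.2 and 20.3 CPM in the NMJ region of sections 1 and 2 against 5.61 and 5.55 CPM in the other muscle (log2 fold change 2.0, SE 0.10, adjusted p = 2e-58). *Map2k1*, the ERK kinase MEK1, was at 352 against 97.7 CPM in section 1 and 285 against 88.5 CPM in section 2 (log2 fold change 1.77, SE 0.05, adjusted p = 4.6e-117). *Dusp6*, a phosphatase that inactivates ERK and is induced by it, was at 218 and 211 CPM, against 54.2 and 54.8 CPM in the other muscle (log2 fold change 1.98, SE 0.05, adjusted p = 3.2e-140). Each of these 3 was at least 3-fold higher in both sections, with no overlap. *Etv4* was not low outside muscle, where it was at 16.6 and 19.3 raw CPM. In the same units it was at 25.1 and 20.6 in the NMJ region and 5.41 and 5.47 in the other muscle. Which cells hold it was not tested. The feedback inhibitors *Spry4* (0.70), *Spry1* (0.51) and *Spry2* (0.31) and the phosphatase *Dusp4* (0.32) were higher by less. The genes for the kinases and factors further along the pathway did not pass the test, with *Mapk3* at 0.14, *Gabpa* at 0.06 and *Gabpb1* at 0.09. *Erbb3*, a neuregulin receptor that is also a Schwann cell gene, was higher (0.62), whereas *Erbb2* (0.18) and *Erbb4* (−0.26) did not pass. *Spry2* did not pass without section 1 (adjusted p = 0.27) and *Dusp4* without section 2 (0.97), and neither passed with DESeq2.

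In the synaptic cleft and basal lamina, 4 of 13 genes tested were higher and none lower (median 0.09). *Colq*, the collagen tail that anchors acetylcholinesterase, was at 14.4 and 15.4 CPM in the NMJ region of sections 1 and 2 against 4.8 and 6.12 CPM in the other muscle (log2 fold change 1.46, SE 0.12, adjusted p = 1.7e-28). *Col25a1*, a transmembrane collagen needed for motor innervation, was at 28 against 5.83 CPM in section 1 and 30.8 against 7.66 CPM in section 2 (log2 fold change 2.13, SE 0.09, adjusted p = 7e-77). *Col13a1*, another transmembrane collagen of the synapse, was at 20.7 and 22.8 CPM, against 10.9 and 14.9 CPM in the other muscle (log2 fold change 0.77, SE 0.09, adjusted p = 1.3e-15). All 3 were higher in both sections. *Lama2*, the laminin α2 chain of muscle basal lamina, passed with a small difference (0.21) that was lost without either section (adjusted p = 0.31 and 0.33). The chains that concentrate at synapses as proteins did not pass, among them *Lamb2* (0.08), *Lama4* (0.07) and *Lama5* (0.15), although *Lamb2* did when scaled to the muscle genes (0.27) and with MTJ-rich spots left out of the other muscle (0.17, adjusted p = 0.01).

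In the dystrophin-utrophin complex, which links the cytoskeleton to the basal lamina, 1 of 13 genes was higher and 2 were lower, with a median of −0.12. Over all genes tested 6.44% were higher and 5.29% lower, so that these counts say little about the complex. *Utrn*, the synaptic relative of dystrophin, was at 91 and 87 CPM in the NMJ region of sections 1 and 2 against 67.6 and 65.2 CPM in the other muscle (log2 fold change 0.42, SE 0.05, adjusted p = 2.7e-13), with both NMJ values above both others. *Dmd*, dystrophin itself, was at 145 against 168 CPM in section 1 and 140.1 against 145 CPM in section 2 (log2 fold change −0.14, SE 0.05, adjusted p = 0.074), so that its difference did not pass. The syntrophin gene *Sntb1* (−0.20) was lower, but not when scaled to the muscle genes (adjusted p = 0.92) or without section 1 (0.24). On that scale 4 genes of the complex were higher and none lower.

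Sodium channel genes held some of the widest contrasts, with 5 of 8 genes higher and none lower (median 0.21). *Scn3b*, a regulatory β subunit, was at 167 and 132 CPM in the NMJ region of sections 1 and 2 against 25.4 and 22.7 CPM in the other muscle (log2 fold change 2.63, SE 0.05, adjusted p = 1.2e-177). *Scn4a*, the adult muscle channel, was at 150.2 against 98 CPM in section 1 and 158 against 108 CPM in section 2 (log2 fold change 0.58, SE 0.05, adjusted p = 1.4e-24). The regions did not overlap for either gene, and the adult channel had the smaller contrast. *Ank3*, which anchors sodium channels, was higher by less (0.26) and did not pass without section 1 (adjusted p = 0.084) or section 2 (0.15).

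Protein kinase A and its anchors were represented by 8 genes outside the rule, of which 2 were higher. *Akap11*, an anchoring protein for the kinase, was at 82.2 and 70.1 CPM in the NMJ region of sections 1 and 2 against 28.1 and 25.4 CPM in the other muscle (log2 fold change 1.51, SE 0.06, adjusted p = 7.8e-89), with the regions far apart. *Prkar2a* was higher by 0.18, a call lost with DESeq2 and without section 2 (adjusted p = 0.87). The catalytic subunits *Prkaca* (−0.03) and *Prkacb* (−0.04) did not pass. Genes of nuclear anchoring, which hold the synaptic nuclei in place, gave no higher call among 7, with *Syne1* at 0.10 and *Syne2* at −0.01, and *Sun2* was lower (−0.22) but not when scaled to the muscle genes (adjusted p = 0.83) or without section 1 (0.36).

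A further list of genes known from synaptic myonuclei had 5 of 6 members higher and none lower. *Ano4*, of the anoctamin family, was at 9.12 and 6.07 CPM in the NMJ region of sections 1 and 2 against 0.627 and 0.638 CPM in the other muscle (log2 fold change 3.59, SE 0.21, adjusted p = 4.1e-47). *Pdzrn4*, a PDZ and RING domain protein, was at 15.8 against 2.19 CPM in section 1 and 17.1 against 2.65 CPM in section 2 (log2 fold change 2.77, SE 0.13, adjusted p = 5.3e-65). *Phldb2*, which encodes the microtubule capture protein LL5β, was at 87.8 and 61.9 CPM, against 38.6 and 27.4 CPM in the other muscle (log2 fold change 1.18, SE 0.06, adjusted p = 2.1e-65). All 3 were apart in both sections. *Vav3* (0.43) and *Apobec2* (0.31) passed by less, and were lost with DESeq2 and without section 2 (adjusted p = 0.73 and 0.34), *Vav3* also without section 1 (0.10). *Ncam1*, a cell adhesion molecule of synapses and immature fibers, did not pass (0.07). The 17 genes that the study had picked for following *Chrna1* at E18.5 were all higher, with a median of 0.76, but the study chose them on these sections, so that their count is not independent evidence. Among those of the 17 not named above, *Cd24a* (2.02), *Shc4* (1.86) and *Efnb1* (1.18) had the widest contrasts.

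**Figure D3:**
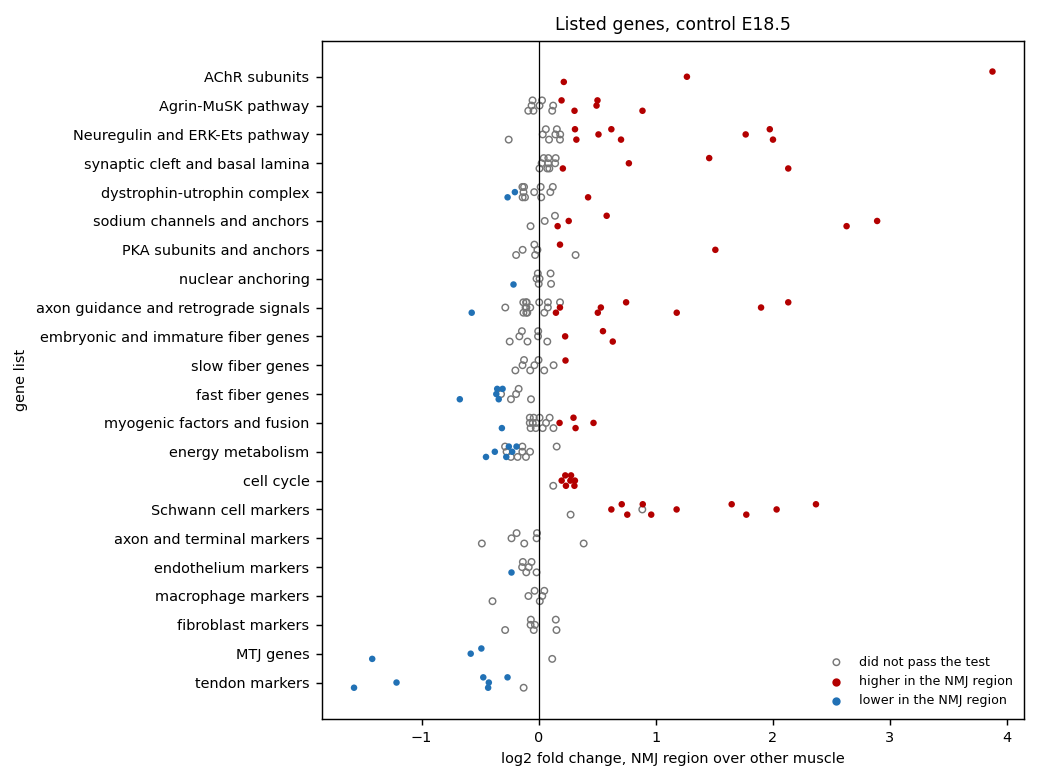
Log2 fold changes (NMJ region over other muscle, control E18.5) of the tested genes in each list, with 1 point per gene. Red points passed the test higher in the NMJ region, blue points lower, and open points did not pass; *Chrne* at 3.88 lies furthest to the right, and the called points of the MTJ and tendon lists are all blue.

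Of the genes for axon guidance and retrograde signals, 8 of 24 tested were higher and 1 was lower. *Gdnf*, a survival factor for motor neurons, was at 6.45 and 9.55 CPM in the NMJ region of sections 1 and 2 against 1.88 and 2.36 CPM in the other muscle (log2 fold change 1.9, SE 0.17, adjusted p = 3.1e-24). *Efnb1*, a ligand of Eph receptors, was at 43.9 against 18.499 CPM in section 1 and 41 against 19 CPM in section 2 (log2 fold change 1.18, SE 0.07, adjusted p = 5.5e-48). The values of *Gdnf* were low throughout. Its regions did not overlap and neither did those of *Efnb1*, which held for 30.8% of all genes tested. *Bdnf* (0.75), *Efna5* (0.53), *Sema6b* (0.51), *Nectin3* (0.18) and *Cdh13* (0.15) were the other higher genes beside *Col25a1*. *Bdnf*, *Efna5* and *Sema6b* did not pass with DESeq2, nor without section 1 (adjusted p = 0.28, 0.074 and 0.085). With DESeq2 3 of the 24 genes were higher. *Nectin3* and *Cdh13* did not pass in the band drawn from neighbouring spots. The growth factor *Fgf7* was lower (−0.57). The repellents *Slit2* (0.08) and *Slit3* (0.08) and the receptor *Robo1* (0.05) did not pass.

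Among fiber genes, some embryonic genes were higher and some fast fiber genes lower in the NMJ region. *Myh3*, the embryonic myosin heavy chain, was at 6058 and 5379 CPM in the NMJ region of sections 1 and 2 against 3966 and 3413 CPM in the other muscle (log2 fold change 0.63, SE 0.11, adjusted p = 9.9e-07). *Tnnt2*, the cardiac and embryonic troponin T, was at 809 against 578 CPM in section 1 and 1007 against 657 CPM in section 2 (log2 fold change 0.55, SE 0.07, adjusted p = 8.3e-13). Together with *Ankrd2* (0.23) these were 3 of 10 embryonic and immature fiber genes, and the neonatal myosin *Myh8* did not pass (−0.25). Of 10 fast fiber genes 5 were lower and none higher, with a median of −0.31. *Pvalb*, the calcium buffer of fast fibers, was at 129 and 367 CPM, against 235 and 523 CPM in the other muscle (log2 fold change −0.67, SE 0.06, adjusted p = 1.2e-23). Its level differed more between the sections than between the regions, but within each section the NMJ region was lower. The fast myosins *Myh4* (−0.34) and *Myh1* (−0.31), *Mybpc2* (−0.35) and *Actn3* (−0.36) were lower too. Scaled to the muscle genes 5 of 10 fast genes were lower, *Myh4* not among them (adjusted p = 0.11). Of 9 slow fiber genes only *Tnni1* was higher (0.22), and it was lost without section 1 (adjusted p = 0.35) or section 2 (0.17).

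Genes of energy metabolism were lower in 6 of 15 tested and higher in none, with a median of −0.23. *Mb*, myoglobin, was at 54.5 and 114 CPM in the NMJ region of sections 1 and 2 against 82.7 and 144 CPM in the other muscle (log2 fold change −0.45, SE 0.05, adjusted p = 3.5e-14), and *Cox7a1*, a muscle subunit of cytochrome oxidase, was at 618 against 875 CPM in section 1 and 711 against 843 CPM in section 2 (log2 fold change −0.37, SE 0.07, adjusted p = 4.1e-06). *Fabp3* (−0.28), *Cox8b* (−0.25), *Ppargc1a* (−0.23) and *Cpt1b* (−0.19) were the other lower genes, whereas the median gene did not move. On the scale of the muscle genes 4 were lower and 2 higher, so that this group depends on the scale, and the *Cox7a1* call was lost with DESeq2 (adjusted p = 0.057).

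Of the myogenic factors and fusion genes, 4 of 17 were higher and 1 was lower. *Mymx*, the fusion protein myomixer, was at 43.7 and 39.3 CPM in the NMJ region of sections 1 and 2 against 30.9 and 29.2 CPM in the other muscle (log2 fold change 0.47, SE 0.07, adjusted p = 1.6e-10). *Pax7* (0.30) and *Myf5* (0.32), which mark muscle progenitors, and *Myog* (0.18) were slightly higher, and *Klf5* (−0.31) was slightly lower. These 4 small calls were lost with DESeq2 and without section 1 (adjusted p = 0.32, 0.075, 0.42 and 0.15), and *Klf5* changed sign in spots without Schwann cell UMIs (0.0071). The cell cycle genes were higher in 7 of 8, each by little, with a median of 0.25 and *Ccna2* (0.31) and *Mki67* (0.23) as examples. *Mki67* was lost without section 1 (adjusted p = 0.40) or 2 (0.12) and *Ccna2* without section 1 (0.19), and with spots thinned to 5000 UMIs 1 of the 8 was higher. DESeq2 called 0 of the 8, with 3 at an unadjusted p under 0.05. Of 12 genes of the denervation response, 4 were higher, *Chrng*, *Myog* and *Myh3* among them, and *Trim63*, a ubiquitin ligase of muscle atrophy, was lower (−0.23), but not when scaled to the muscle genes (adjusted p = 0.78) or without section 1 (0.15) or 2 (0.069). *Hdac4* (−0.08), *Dach2* (−0.30) and *Gadd45a* (0.03) did not pass.

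Genes of the myotendinous junction (MTJ) and of tendon were lower in the NMJ region. *Col22a1*, a collagen of the MTJ, was at 24.9 and 27.6 CPM in the NMJ region of sections 1 and 2 against 64.9 and 76.1 CPM in the other muscle (log2 fold change −1.42, SE 0.07, adjusted p = 6.2e-69). *Tnmd*, tenomodulin of tendon cells, was at 27.8 against 75.5 CPM in section 1 and 31.6 against 103 CPM in section 2 (log2 fold change −1.58, SE 0.06, adjusted p = 1.3e-83). *Fmod*, fibromodulin, was at 35.5 and 56.4 CPM, against 75.1 and 141 CPM in the other muscle (log2 fold change −1.21, SE 0.06, adjusted p = 9.1e-65). The regions were apart for all 3. Of the 4 MTJ genes 3 were lower, the others being *Uchl1* (−0.58) and *Rxrg* (−0.49), and of 7 tendon markers 6 were lower, with a median of −0.43. The other muscle includes the fiber ends. With spots rich in MTJ genes left out of it, 2 of 7 tendon markers were lower. That filter lowers the MTJ genes of the other muscle by construction, so that the values of *Col22a1* (0.54) and *Uchl1* (0.41) under it are no result.

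Schwann cell markers were the other cell type list that moved with the region, with 10 of 12 genes higher, none lower and a median of 0.93. *Sox10*, the transcription factor of the Schwann lineage, was at 4.6 and 8.49 CPM in the NMJ region of sections 1 and 2 against 0.911 and 1.61 CPM in the other muscle (log2 fold change 2.37, SE 0.20, adjusted p = 1.1e-26). *Cdh19* (2.03) and *Fabp7* (1.77) were also higher. The summed raw level of the 12 markers was 150 and 165 CPM in the NMJ region, 76.0 and 84.2 CPM in the other muscle and 157 and 259 CPM outside muscle, and all 12 were higher in the NMJ region of both sections. Of the NMJ spots 55.6% and 54.8% held a UMI of at least 1 of 5 Schwann cell genes, *Sox10*, *Cdh19* and *Fabp7* among them, against 26.0% and 25.4% of the other muscle spots. In the 206 and 149 NMJ spots without such a UMI, against 1601 and 1148 other muscle spots without one, 412 genes were higher and 516 lower. In these spots the log2 fold change of *Chrne* was 3.46, of *Col25a1* 1.86, of *Colq* 1.13 and of *Gdnf* 1.37, and *Chrnb1* did not pass (0.10, adjusted p = 0.37). *Abl2*, *Bdnf*, *Dusp4*, *Lama2*, *Myf5*, *Prkar2a*, *Sema6b*, *Spry2*, *Sun2* and *Vav3* did not pass there either. Markers of other cell types moved with these folds. Of the 7 Schwann cell markers still tested in these spots 3 were higher (median 0.48), as were 3 of 5 hepatocyte markers (median 0.35) and 3 of 5 mesothelium markers (median 0.41), and their part in the folds was not tested. That comparison was added after the data were seen.

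Of the markers of axons and nerve terminals, 0 of 7 tested passed in edgeR or DESeq2, and 0 had an unadjusted p under 0.05 in either. *Chat*, *Slc18a3* and *Slc5a7*, the cholinergic genes of the motor neuron, whose cell bodies lie in the spinal cord, were too low to be tested. The summed raw level of the 12 axon markers was 34.7 and 51.9 CPM in the NMJ region and 26.7 and 61.8 CPM in the other muscle. No marker of erythrocytes, macrophages, fibroblasts, hepatocytes or mesothelium passed in edgeR (3 fibroblast and 1 hepatocyte marker at an unadjusted p under 0.05), and DESeq2 called 1 fibroblast marker lower. In edgeR 1 of 7 endothelial markers was lower, and smooth muscle and cartilage lists each had 1 gene higher and 1 lower. In the band drawn from neighbouring spots the 5 hepatocyte markers were higher, with *Alb* at 0.92, but the liver transcripts were present only in section 1, where 5 genes summed to 439 raw CPM in the NMJ region against 0.293 in section 2. Without section 1 the *Alb* value in the band was −2.01.

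In the band drawn from neighbouring spots, where the genes of the score were counted too, some lists gave other counts. Higher were 5 of 14 agrin-MuSK genes, 9 of 17 neuregulin, ERK and Ets genes, 7 of 14 cleft genes (with *Ache*, *Nid1* and *Nid2* added to the 4 above), 6 of 8 sodium channel genes, 11 of 12 Schwann cell markers and 6 of 8 cell cycle genes. Lower were 5 of 10 fast fiber genes, 4 of 15 energy genes, 4 of 4 MTJ genes, 7 of 7 tendon markers and 3 of 4 cartilage markers. Most spots of the band are also spots of the NMJ region, so that these counts are not independent of those above.

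By the rule for named genes, which asks that the mean log2 CPM reach 5, the 12 widest higher contrasts were those of *Scn3b*, *Dusp6*, *Calcrl*, *Map2k1*, *Fzd10*, *Akap11*, *Map3k7cl*, *Chrng*, *Phldb2*, *Wipi1*, *Ccnd1* and *Col23a1*. *Calcrl*, the receptor for calcitonin gene-related peptide and adrenomedullin, was at 106 and 98.5 CPM in the NMJ region of sections 1 and 2 against 28.5 and 28.1 CPM in the other muscle (log2 fold change 1.85, SE 0.05, adjusted p = 3.1e-122). *Fzd10*, a Wnt receptor, was at 60.2 against 19.1 CPM in section 1 and 64.8 against 21.1 CPM in section 2 (log2 fold change 1.64, SE 0.06, adjusted p = 1.7e-87). *Ccnd1*, cyclin D1, was at 95.5 and 90.2 CPM, against 46.9 and 44.3 CPM in the other muscle (log2 fold change 1.03, SE 0.05, adjusted p = 8.7e-59). These receptors and the cyclin were chosen for their wide contrasts, and their values describe them. *Map3k7cl* (1.35), *Wipi1* (1.08), which binds autophagosomal membranes, and *Col23a1* (0.97), a transmembrane collagen, complete the list. The 12 widest lower contrasts were *Tnmd*, *Col22a1*, *Fmod*, *Abi3bp*, *Pvalb*, *Chrna9*, *Mstn*, *Car14*, *Uchl1*, *Olfml2b*, *Ntng2* and *Tpbgl*. *Mstn*, myostatin, an inhibitor of muscle growth, was at 101 against 150.2 CPM in section 1 and 94.7 against 146 CPM in section 2 (log2 fold change −0.59, SE 0.05, adjusted p = 3.4e-23). *Chrna9*, a nicotinic receptor subunit that does not belong to the muscle AChR, was at 32.4 and 41.7 CPM, against 57 and 58.3 CPM in the other muscle (log2 fold change −0.65, SE 0.06, adjusted p = 5.1e-21). These 2 were thus lower in each section.

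**Figure D4:**
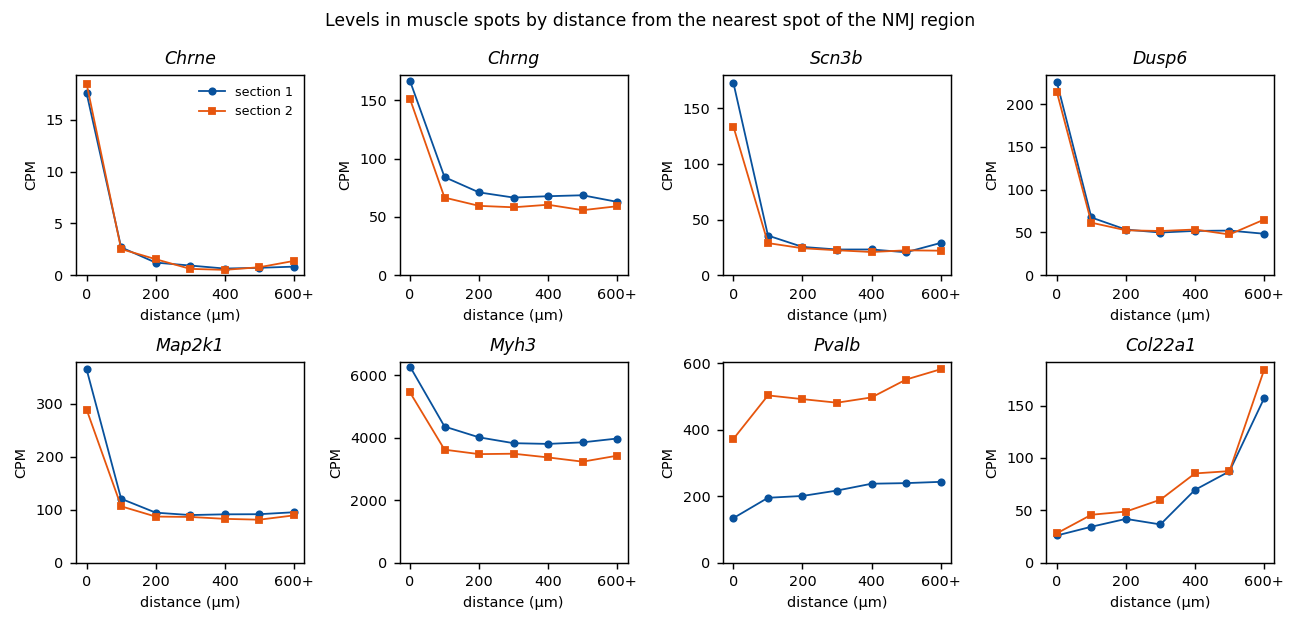
Mean level of selected genes against the distance from the nearest NMJ spot in µm, for both control E18.5 sections, in raw CPM on linear axes that start at 0, with the last point for 600 µm and more. *Chrne* drops from 17.6 and 18.47 CPM in the NMJ region to 2.69 and 2.53 CPM at 100 µm, whereas *Col22a1* is at 25.9 and 28.0 CPM in the region and 157 and 184 CPM in the last bin.

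With distance from the nearest NMJ spot, in raw CPM, *Chrne* went from 17.6 and 18.47 in the region to 2.69 and 2.53 at 100 µm and 1.22 and 1.55 at 200 µm. *Scn3b* went from 173 and 134 to 35.7 and 28.9 at 100 µm, and then stayed between 20.7 and 29.0 at 200 µm and more. *Chrng* fell less, from 166 and 151 to 84.1 and 66.5 at 100 µm, and was still at 62.9 and 59.1 at 600 µm and beyond. For *Chrne* and *Scn3b* most of the fall thus lay within the first 100 µm, the spacing of the spots. *Myh3* had the same shape on a high base, from 6282 and 5452 to 4359 and 3618 raw CPM at 100 µm. *Pvalb* and *Col22a1* ran the other way. *Col22a1* was at 25.9 and 28.0 raw CPM in the region and at 157 and 184 at 600 µm and beyond, and *Pvalb* at 134 and 372 in the region and 243 and 581 there. The profile is a description, since the spots at 0 µm are those of the rule and spots of neighbouring bins touch.

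Over all muscle spots, the genes whose log-normalised level was most like the NMJ score, of 9252 compared outside the rule, included *Scn3b*, *Map2k1*, *Dusp6*, *Calcrl*, *Kcne1l*, *Cd24a*, *Wipi1*, *Myzap* and *Chrng*. Pearson's r with the score was 0.685 and 0.654 for *Scn3b* over the 3092 and 2199 muscle spots of sections 1 and 2. For *Map2k1* it was 0.644 and 0.639, and for *Chrng* 0.437 and 0.457. The values of these genes were thus alike in both sections. Spots share their library, and per-spot depth enters both values, so no p is given.

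Some of the genes with high contrast lie next to each other in the genome. Of the 13571 fitted genes with a GENCODE position on GRCm38, 181 (1.33%) were at least 1 log2 unit higher with an adjusted p under 0.05. Of these 181, 17 (9.39%) formed 9 pairs of direct neighbours among the fitted genes. The 181 include genes of the score, which the rule made high in these spots, so that both shares are descriptions. A share expected for direct neighbours was not computed. *Ache* (chr5:137287519-137294466) and *Ufsp1* (chr5:137294629-137295665), on the plus strand, are separated by 162 bases. *Chrnd* (chr1:87190607-87200070) and *Chrng* (chr1:87204657-87212694), also on the plus strand, are 4586 bases apart. *Wipi1* (chr11:109573331-109611967, minus strand) and *Prkar1a* (chr11:109649405-109669656, plus strand) are 37437 bases apart. These pairs and that of *Muc3a* and *Ache* hold genes of the score, which the rule chose. *Phldb2* and *Plcxd2*, 5664 bases apart on chromosome 16, do not, and the remaining 4 pairs are up to 742578 bases apart. Counts come from probes made for each gene. Whether neighbouring genes share control was not tested.

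At E14.5 the same rule picked 257 NMJ spots in 3 control sections, and the NMJ enrichment (the log2 fold change of NMJ region over other muscle) was compared between groups with an interaction term in a fit of all 8 sections. Of 14304 genes, 13.7% differed between control E18.5 and control E14.5, 5.94% with a higher and 7.76% with a lower enrichment at E18.5. The median of all genes shifted by 0.50 when scaled to the muscle genes, and the split then changed from 849 and 1110 to 8825 and 84, so that the sign of small differences depends on the scale. NMJ spots held more UMIs than other muscle in each E14.5 control section as well, with medians of 26667 against 17775.5, 55674 against 48229 and 23185.5 against 20799.5. Their median muscle score was higher than that of the other muscle at E14.5, with 3.09 against 2.97, 3.03 against 2.74 and 2.96 against 2.86. At E18.5 it was lower, with 4.27 against 4.36 and 4.33 against 4.38.

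**Figure D5:**
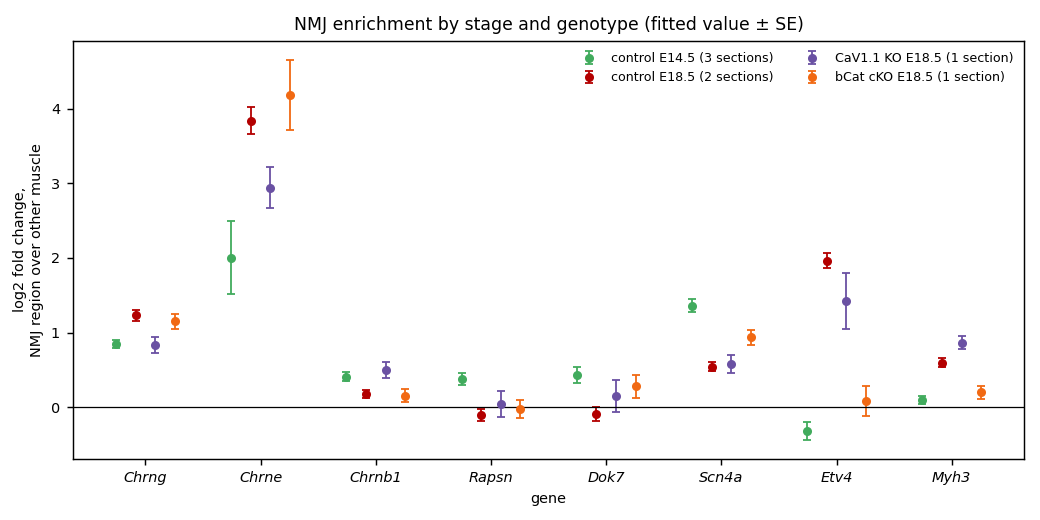
NMJ enrichment (log2 fold change of NMJ region over other muscle) of 8 genes in the controls at E14.5 (3 sections) and E18.5 (2 sections) and in the CaV1.1 KO and β-catenin cKO at E18.5 (1 section each), with error bars of 1 SE from the fit. *Etv4* stands at 1.96 in control E18.5 and at −0.31 in control E14.5, and *Scn4a* at 0.54 and 1.36.

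*Etv4* had no positive enrichment at E14.5. Its levels in the 3 control E14.5 sections were 15.6, 15.3 and 12.6 CPM in the NMJ region and 18.2, 17.9 and 19.6 CPM in the other muscle, on the scale of this fit. At E18.5 they were 32.2 and 27.2 against 7.69 and 7.57 CPM, and the enrichment differed by 2.27 (SE 0.15, adjusted p = 1.2e-19), in edgeR with and without the section block and in DESeq2. *Chrne* was at 2.45, 1.72 and 0.786 CPM in the E14.5 NMJ regions, from only 11, 10 and 2 UMIs, against 22.5 and 24.3 CPM at E18.5. Its enrichment was 1.83 higher at E18.5 (SE 0.53, adjusted p = 0.011), but not without E14.5 section 3 (1.25, adjusted p = 0.15). *Chrng*, the fetal subunit, was at 619, 520.4 and 432 CPM in the NMJ region at E14.5 and at 213 and 199 CPM at E18.5, a difference in level that was not tested. Its enrichment was 0.85 at E14.5 and 1.23 at E18.5, a difference of 0.38 (adjusted p = 0.0015) that was lost without E18.5 section 2 (0.31, adjusted p = 0.12). *Myh3* was enriched by 0.10 at E14.5 and 0.60 at E18.5 (difference 0.50, SE 0.08, adjusted p = 1.4e-06).

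Other postsynaptic genes had a lower enrichment at E18.5. *Scn4a* was at 76.3, 55.6 and 49.5 CPM in the E14.5 NMJ regions against 27.9, 17.2 and 31.0 CPM in the other muscle, and at 199.6 and 211 against 134 and 148 CPM at E18.5. Its values at E18.5 were thus above those at E14.5 in both regions, which was not tested, and its enrichment differed by −0.82 (SE 0.11, adjusted p = 9.9e-09). *Rapsn* was enriched by 0.38 at E14.5 and −0.10 at E18.5 (difference −0.48, adjusted p = 0.00083), and *Dok7* by 0.43 and −0.09 (difference −0.52, adjusted p = 0.0047). Neither held when scaled to the muscle genes (0.03, adjusted p = 0.88, and 0.00, adjusted p = 0.99) or without E18.5 section 1 (adjusted p = 0.15 and 0.11), and *Dok7* did not without E14.5 section 2 (0.41). *Chrnb1* differed by −0.23 (adjusted p = 0.045), which turned to 0.28 when scaled to the muscle genes and was lost without any 1 of 4 sections, with an adjusted p of 0.28 and 0.16 without E18.5 section 1 or 2 and of 0.26 and 0.55 without E14.5 section 1 or 2. *Lrp4* (−0.15, adjusted p = 0.27), *Colq* (0.30, adjusted p = 0.30) and *Tnnt2* (0.05, adjusted p = 0.76) did not pass. DESeq2 kept *Scn4a*, *Etv4* and *Myh3*, with the other 5 differences lost, and edgeR without the block kept *Etv4* alone.

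Between control and CaV1.1 KO at E18.5, with 1 KO section of 122 NMJ spots and no replicate of it, 1.79% of genes differed in enrichment, 0.671% higher and 1.12% lower in the control. Of the 12 genes compared one by one 0 passed in edgeR, with 4 at an unadjusted p under 0.05, and DESeq2 called 0 genes of all. *Chrne* was at 46.1 against 6.005 CPM in the KO, and the control enrichment exceeded the KO's by 0.90 (SE 0.34, adjusted p = 0.20). *Chrng* was at 331 against 186 CPM in the KO, with a difference in enrichment of 0.40 (SE 0.13, adjusted p = 0.11). *Chrng* passed with no filter on low counts (0.37, adjusted p = 0.037), *Chrne* with the top 10% of the score (1.28, adjusted p = 0.027), and both when scaled to the muscle genes. Scaling shifted the median of all genes by 0.42 and the split from 96 and 160 to 2148 and 7. Control levels of *Chrne*, 22.5 and 24.3 CPM against 1.69 and 1.55 CPM, were below those of the KO in both regions, which was not tested. The paper reports that *Chrna1* and *Musk* were no longer confined to the fiber center in the E18.5 KO. Of the KO's neighbour band spots 46.0% were NMJ spots, against 73.8% and 72.9% in the controls. Its NMJ region thus need not be an endplate band.

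Against the β-catenin cKO, with 1 section of 237 NMJ spots, 0.741% of genes differed, 0.517% higher and 0.224% lower in the control. *Etv4* was at 11.3 CPM in the NMJ region and 10.7 CPM in the other muscle of the cKO, without the contrast of the controls, and the enrichment differed by 1.88 (SE 0.22, adjusted p = 5.8e-09). *Myh3* was at 5962 and 5190.0 CPM, a difference in enrichment of 0.40 (SE 0.11, adjusted p = 0.045). Neither passed with DESeq2 or without the section block, and *Myh3* did not without E18.5 section 1 (adjusted p = 0.072) or 2 (0.21). *Chrne* was at 7.23 against 0.390 CPM in the cKO from 44 and 11 UMIs, with an enrichment of 4.18 against 3.84 in the controls, and the difference of −0.34 did not pass (SE 0.53, adjusted p = 0.95). In the controls *Chrne* was at 22.5 and 24.3 CPM in the NMJ region and at 1.69 and 1.55 CPM in the other muscle. Its level was thus lower in both regions of the cKO section, a difference that was not tested. The paper describes *Chrne* as almost absent from the cKO diaphragm. With 1 section in each mutant group, genotype cannot be told apart from the embryo or the section.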

How the data were processed

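10x Visium FFPE libraries of E14.5 and E18.5 mouse diaphragm sections were analysed, with both E18.5 controls in the main comparison. The authors deposited raw counts, the UMIs per gene and spot under tissue, made with Space Ranger (2.0.0 or 2.0.1 per the file headers) from a probe set of 19465 genes on mm10. Deposited per-gene spatial scores were not used. Here, counts were summed per section and region and fitted with edgeR 4.0.16 (quasi-likelihood, TMM, filterByExpr, R 4.3.3), with the section as a block. Regions of a section come from the same embryo, and their deviations correlated at 0.812 over 13575 genes. Regions were drawn in Python 3.11.15 (Otsu cut from scikit-image 0.26.0). Alternatives included DESeq2 1.42.0, other scalings, filters, score limits and left-out sections, and the scripts were tested on simulated data. The genes named are those of the lists, and the 12 highest and 12 lowest log2 fold changes of called genes that moved the same way in both sections and whose mean log2 CPM reached 5. Members and lists were chosen with earlier results of these data known. Gene positions are from GENCODE M21 and promoter sequences from RefSeq, both GRCm38. Intervals cover counting error only. Some genes of the lists are not reported here by name.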

Additional observations from a re-analysis of the deposited data

Results flagged for a closer look

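Of 12 genes compared one by one, the test of differences in NMJ enrichment picked out 8 between control E18.5 and control E14.5. Over all 14304 genes tested, 13.7% differed between these groups. DESeq2 kept *Scn4a*, *Etv4* and *Myh3* of the 8, and edgeR without the section block kept *Etv4* alone. The log2 difference was 2.27 for *Etv4*, 1.83 for *Chrne*, 0.50 for *Myh3* and 0.38 for *Chrng*. It was negative, so that the enrichment was lower at E18.5, for *Scn4a* (−0.82), *Dok7* (−0.52), *Rapsn* (−0.48) and *Chrnb1* (−0.23). The same test between control E18.5 and the β-catenin cKO picked out *Etv4* (1.88) and *Myh3* (0.40) of the 12, where 0.741% of all genes differed. Neither passed with DESeq2 or without the section block. The mutant group is 1 section. The stages differ in the number of spots and in the depth and muscle score of NMJ against other muscle spots. The part of these in the differences was not tested.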

How the results depend on the processing

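The number of called genes depended on the fit more than on the choice of spots. The main comparison called 1590 genes. Without the section block, which is the fit without the pairing, it called 54, and DESeq2 called 378. Scaling to the 9 muscle genes gave 2583, thinning to 5000 UMIs a spot 358 and leaving out spots with Schwann cell UMIs 928. The fit of all 8 sections called 1527 (588 higher and 939 lower), and leaving out a section from that fit gave 422 to 909. The neighbour band called 1598 genes, 53 without the block, 356 with DESeq2, 2315 (2180 higher and 135 lower) when scaled, 359 when thinned and 361 to 593 without a section, in the fit of all 8 sections, which called 1237 (552 higher and 685 lower) with both. Against control E14.5, 1959 genes became 33 without the block, 375 with DESeq2, 8909 when scaled and 856 to 2264 without a section. Against the CaV1.1 KO, 256 became 0 without the block (442 at an unadjusted p under 0.05), 0 with DESeq2 (348 unadjusted), 389 with no filter, 2155 when scaled and 29 to 257 without a section. Against the cKO, 106 became 0 without the block (229 unadjusted), 4 with DESeq2, 57 when scaled and 53 to 55 without a section. The other settings stayed within 1.5 times.

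Of 100 genes followed in the main comparison, 67 lost their call without the block and 24 with DESeq2. The 100 include genes that were not called in the main fit, such as *Rapsn* and *Dok7*, and these had no call to lose. The share lost among the called genes was thus higher. Signs turned for *Dok7* (0.14 when scaled, 0.0043 with the top 25%, 0.0044 with *Chrna1* and *Chrnd* alone, 0.12 without Schwann cell UMIs), *Rapsn* (0.13 when scaled, 0.13 when thinned, 0.049 with *Chrna1* and *Chrnd* alone, −0.23 to 0.046 without a section), *Dusp4* (−0.080 when thinned), *Klf5* (0.0071 without Schwann cell UMIs), *Col22a1* (0.54) and *Uchl1* (0.41) without MTJ-rich spots (by the construction of that filter), *Alb* in the band (−2.01 to 0.89 without a section), and, when scaled, the differences from E14.5 of *Chrnb1* (0.28) and *Rapsn* (0.026) and from the KO of *Myh3* (0.15). The cause of the others was not tested. With 2 sections and 1 per mutant group, a low count limits genes such as *Gdnf*, and leaving out a section leaves 1, taken to vary like the others.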

Other observations

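A few genes with low counts, chosen after their values were seen, had some of the widest contrasts in the NMJ region. *Tafa4*, a secreted protein, was at 5.65 and 3.18 CPM in the NMJ region of sections 1 and 2 against 0.223 and 0.189 CPM in the other muscle (log2 fold change 4.41, SE 0.30, adjusted p = 6.4e-37). *Sstr1*, a somatostatin receptor, was at 5.08 against 0.506 CPM in section 1 and 4.63 against 0.307 CPM in section 2 (log2 fold change 3.54, SE 0.26, adjusted p = 5.2e-33), and *Glp1r*, the receptor for glucagon-like peptide 1, was at 0.968 and 0.771 CPM, against 0.0405 and 0.0945 CPM in the other muscle (log2 fold change 3.66, SE 0.59, adjusted p = 4.4e-08). The levels in the other muscle were close to 0 for these genes, and *Glp1r* did not pass without section 1 (adjusted p = 0.16).

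*Nkx2-2* and *Gpr17*, known from oligodendrocyte precursors, were also higher, *Nkx2-2* at 2.9 and 2.6 CPM in the NMJ region of sections 1 and 2 against 0.162 and 0.165 CPM in the other muscle (log2 fold change 4.04, SE 0.36, adjusted p = 1.5e-23) and *Gpr17* at 11.5 against 1.32 CPM in section 1 and 12.7 against 1.02 CPM in section 2 (log2 fold change 3.35, SE 0.17, adjusted p = 4.2e-62). In spots without a UMI of the 5 Schwann cell genes their log2 fold changes were 2.87 and 2.81, that of *Tafa4* was 4.33 and that of *Ednrb*, an endothelin receptor, fell from 0.93 to 0.30. Which cells hold these transcripts was not tested.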
